A study of Caenorhabditis elegans with 45 samples.

Results

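The change over 8 h within a day was measured in the transcriptomes of whole adult C. elegans on days 2 and 3 of adulthood. Libraries from the later hours of a day (73 and 97 h post feeding, n = 11) were compared with libraries from the earlier hours of the same day (65 and 89 h, n = 11), so that 22 of the 45 libraries of the series were used. Strain and day entered as covariates, and the change was also measured within each strain alone and described across all genes. Both strains are conditionally sterile and were grown at the restrictive temperature from arrested first-stage larvae. FEM animals carry fem-3(q20), a gain-of-function allele that masculinizes the germline, which makes sperm and no oocytes, although transcripts of the oocyte list below were detected in both strains. GEM animals carry gon-2(q388) and gem-1(bc364), which block the formation of the gonad incompletely, so that some animals form a rudimentary gonad. The later hours comprised 3 FEM libraries at 73 h, 3 FEM at 97 h, 3 GEM at 73 h and 2 GEM at 97 h, and the earlier hours comprised 2 FEM at 65 h, 3 FEM at 89 h, 3 GEM at 65 h and 3 GEM at 89 h. Each library came from a pool of many animals. The study's methods call the libraries of a group biological replicates, while the labels name no cultures, and the p-values measure the spread between these libraries.

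Early adulthood in C. elegans follows the last molt, when the epidermis switches to adult cuticle collagens, the intestine begins to make yolk, and the germline produces gametes. Many transcripts still move as these programs run on, and others oscillate through larval life and stop at adulthood. The step of 8 h within a day is set here beside the step of 24 h between the same hours of days 2 and 3.

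Levels are given as log2(normalized count + 1), and a change is a difference on this scale taken as later minus earlier hours. For genes with few reads such differences come out too small. The 22 libraries held an estimated 12831548 to 29833450 reads assigned to genes (median 18001144) and 16670 to 19715 detected genes. Later libraries held 16775049 ± 3526833 estimated reads and earlier ones 20224204 ± 4100973 (SD, n = 11 each), a difference that a two-sided exact permutation test within strain and day placed at p = 0.0568. The genes detected numbered 17372 ± 839 in later and 17581 ± 423 in earlier libraries (SD, n = 11 each, exact permutation p = 0.426). A set of 3 libraries stood apart from their groups. The mean of 16 oocyte genes was 9.17 in GEM 65 h replicate 2 beside 10.53 and 10.46 in the other two, and 14.28 in GEM 89 h replicate 3 beside 12.93 and 12.72. The heat shock gene hsp-16.2, named here after its values were seen, was at 11.07 in FEM 89 h replicate 2 beside 7.16 and 6.20. FEM 97 h replicate 2, not counted among these 3, had 19715 detected genes beside 17151 and 17326. The median level of its detected genes was 7.30 beside 8.02 and 7.93.

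Averaged over strains and days, the transcriptome differed little between the later and the earlier hours. Of 16668 genes tested, 2 (0.012%) passed the test, with 1 higher (0.006%) and 1 lower (0.006%), in limma with Benjamini-Hochberg adjustment at 0.05. The gene that rose was cyp-29A4, a cytochrome P450, and the gene that fell was pud-2.1, from a small family of nematode proteins. The next adjusted p was 0.224. At an unadjusted p under 0.05 there were 1050 genes (6.3%), 601 higher (3.61%) and 449 lower (2.69%), a balance that turned to 336 higher and 1007 lower after centering each library on its median and to 727 and 791 after quantile normalization. The median change was 0.05, the median of the absolute change 0.12, and 95% of genes had an absolute change under 0.51. The 95% confidence interval of the change lay within ±1 for 14611 genes (87.7%) and within ±0.5 for 9569 (57.4%).

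The step of 24 h in the same libraries, measured with the same precision, was far larger. Between day 3 and day 2, 8336 of the 16668 genes passed the test (50%), 6418 higher on day 3 (38.5%) and 1918 lower (11.5%), and the median of the absolute change was 0.38. The split depended on the scaling, with 4706 higher and 4349 lower after quantile normalization and 4732 higher and 4660 lower after centering each library on its median. Distances between libraries, taken as 1 minus the Pearson correlation over all genes, were smaller over 8 h than over 24 h. The 30 pairs of a later and an earlier library of one strain and day had a median distance of 0.0139, and the 20 pairs of replicates of one group had 0.0142. The 30 pairs of one strain and hour that were 24 h apart had 0.0184, and pairs of a FEM and a GEM library at one age had 0.083. Taken by strain, the pairs 24 h apart had 0.0151 in FEM and 0.0307 in GEM. Replicates on days 2 and 3 had 0.0132 and 0.0135 in FEM, and 0.0152 and 0.0167 in GEM. These distances are descriptions, since a library enters several pairs.

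**Figure D1:**
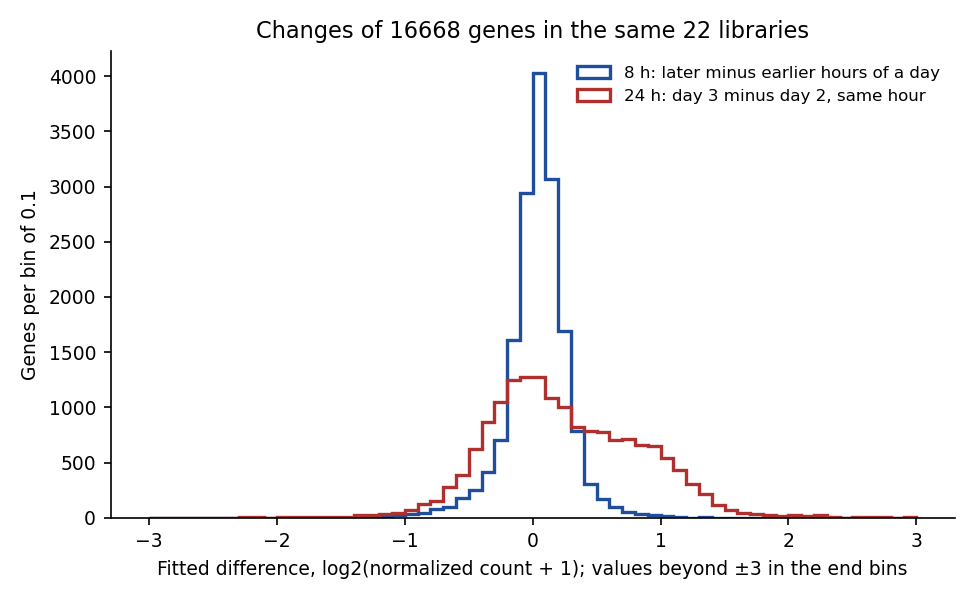
Number of genes (vertical axis, bins of 0.1) by fitted difference on the log2(normalized count + 1) scale, for the change over 8 h (later minus earlier hours) and over 24 h (day 3 minus day 2) in the same 22 libraries. The curve for 8 h is narrow around 0, with a median absolute change of 0.12, and that for 24 h is broad with a shoulder on the side of higher levels and a median absolute change of 0.38.

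The cytochrome P450 gene cyp-29A4 (WBGene00007140, chromosome V of WBCel235 from 9654755 to 9658120, plus strand) belongs to a family of enzymes that oxidize lipids and foreign compounds. On day 2, FEM libraries had 8.35, 8.17 and 8.45 at 73 h, against 7.56 and 7.52 at 65 h. On day 2, GEM libraries had 6.84, 6.98 and 7.30 at 73 h, against 5.34, 5.05 and 5.28 at 65 h. All later libraries of day 2 lay above all earlier ones of their strain. On day 3, FEM libraries had 8.86, 9.39 and 9.13 at 97 h, against 8.77, 7.65 and 9.0 at 89 h, and these ranges overlapped. On day 3, GEM libraries had 8.80 and 8.79 at 97 h, against 8.47, 8.45 and 8.05 at 89 h, with no overlap. The change over both strains was 0.93 (SE 0.14, limma adjusted p = 0.0182), with a 95% interval of 0.64 to 1.22, and its direction was the same in all 4 comparisons of a strain and day.

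The change in cyp-29A4 was 1.30 on day 2 (SE 0.19, limma adjusted p = 0.0377) and 0.56 on day 3 (SE 0.19, adjusted p = 1). It was 0.72 in FEM alone (SE 0.21, adjusted p = 0.546) and 1.14 in GEM alone (SE 0.15, adjusted p = 0.197), neither past the threshold. Over 24 h the gene rose by 1.65 (SE 0.14, adjusted p = 2.02e-07). Its change over 8 h in excess of a steady drift, that is, of 0.25 of the difference between 97 and 65 h, did not pass the test (0.29, adjusted p = 0.77). The adjusted p over both strains was 0.0503 to 0.0924 in 10 of the 22 fits that each left out 1 library, with changes of 0.90 to 0.95. These were the fits without FEM 65 h replicate 1 or 2, FEM 73 h replicate 2 or 3, FEM 97 h replicate 2, GEM 73 h replicate 2, GEM 89 h replicate 2 or 3, and GEM 97 h replicate 1 or 2. In the remaining fits the gene stayed past the threshold. The call over both strains was also lost after quantile normalization (adjusted p = 0.0853) and median centering (0.0651), in the additive model (0.617) and in a fit to all 45 libraries (0.548), with changes of 0.86 to 0.97. The call on day 2 was lost in 17 of 22 such fits, with adjusted p of 0.0529 to 0.399, and stayed only without FEM 89 h replicate 1, 2 or 3, GEM 65 h replicate 1 or GEM 89 h replicate 3.

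**Figure D2:**
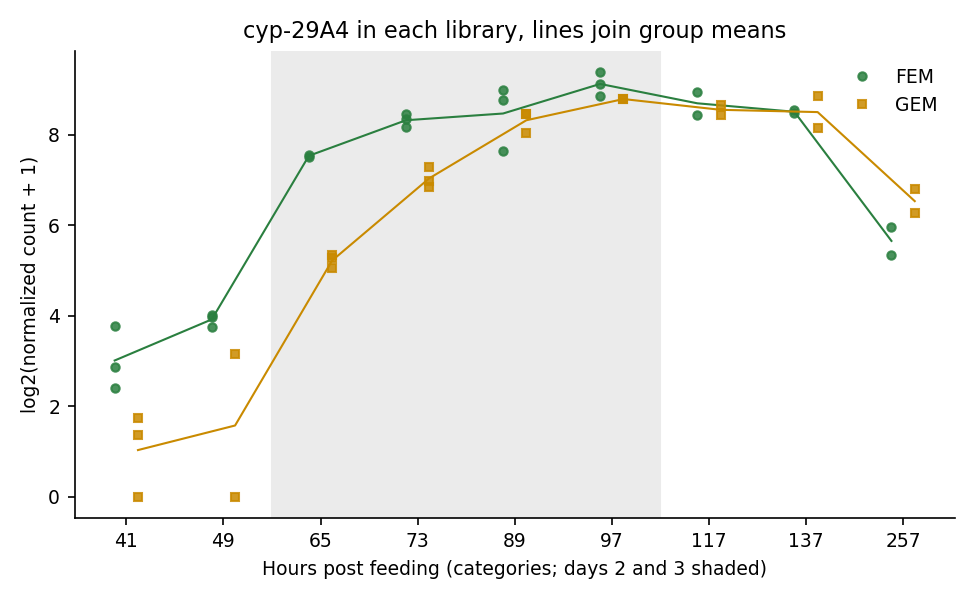
Level of cyp-29A4 in each library, log2(normalized count + 1), by hours post feeding drawn as categories, with FEM and GEM libraries as points, lines through the group means, and days 2 and 3 shaded. Within day 2 the 73 h libraries lie above the 65 h libraries in both strains, at 6.84 to 8.45 against 5.05 to 7.56 over both strains, and the ranges of the strains overlap at 89 h.

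The transcript that fell, pud-2.1, belongs to the pud genes, which encode small nematode proteins first found to be abundant in insulin receptor mutants. It differed in FEM at a single age. FEM libraries had 2.70, 4.56 and 3.78 at 97 h, against 11.34, 11.40 and 11.47 at 89 h. On day 2, FEM libraries had 4.56, 3.36 and 4.18 at 73 h, against 4.72 and 2.68 at 65 h, with overlap. In GEM the level stayed between 1.93 and 3.39 in all 11 libraries. The change over both strains was -1.92 (SE 0.29, limma adjusted p = 0.0182), -3.69 in FEM alone (SE 0.40, adjusted p = 0.0118) and -0.15 in GEM alone (SE 0.39, adjusted p = 0.95). The call over both strains was lost after quantile normalization (adjusted p = 0.0763), without the 3 libraries that stood apart (0.189), in a fit to all 45 libraries (0.686) and in the additive model (0.899), and the call in FEM was lost with all 45 libraries (0.656) and in the additive model (0.559). The difference of the strains in this change, FEM minus GEM, was -3.55 (adjusted p = 0.104), and it passed the test without FEM 65 h replicate 2 (-4.06, adjusted p = 0.0135) or FEM 97 h replicate 2 (-3.77, adjusted p = 0.0477). On day 3 the change was -4.08 (SE 0.40, adjusted p = 9.17e-05, or 0.721 in a fit to all 45 libraries), and the difference between the days passed the test (-4.31, adjusted p = 0.00739). That call was lost without GEM 97 h replicate 2 (-4.09, adjusted p = 0.0564), without the 3 libraries that stood apart (-4.39, adjusted p = 0.114) and in a fit to all 45 libraries (adjusted p = 0.56). The share of genes called was 0.006% on day 3 and 0.006% for the difference between days, 1 gene each.

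The value of pud-2.1 is uncertain, since the family consists of near-identical neighboring copies that can share reads. The copies pud-1.1, pud-1.2 and pud-2.2, named after their values were seen, lie on chromosome V of WBCel235 from 2330429 to 2330930, 2322038 to 2322566 and 2329444 to 2329954, and a RefSeq table places pud-2.1 at the same position as pud-2.2. Single libraries jumped in the other copies. The level of pud-1.2 was 12.35 in FEM 97 h replicate 1 and 13.00 in FEM 65 h replicate 2, and that of pud-1.1 was 11.66 in GEM 89 h replicate 2. Summed over the 4 copies, the normalized count was 5230, 67.8 and 42.4 in FEM at 97 h, against 2618, 2710 and 2862 at 89 h, so the summed later and earlier values overlapped.

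Over both strains the adjusted p of pud-2.1 was 0.0503 to 0.0889 in 11 of the 22 fits that each left out 1 library, with changes of -2.03 to -1.67. These were the fits without FEM 65 h replicate 1, FEM 73 h replicate 2 or 3, any FEM 89 h library, GEM 73 h replicate 2, GEM 89 h replicate 2 or 3, and GEM 97 h replicate 1 or 2. In FEM alone it was 0.0502 to 0.0631 in 6 of 11 such fits, those without FEM 65 h replicate 1, FEM 73 h replicate 2 or 3, FEM 89 h replicate 1 or 3, and FEM 97 h replicate 3, with changes of -3.73 to -3.19.

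**Figure D3:**
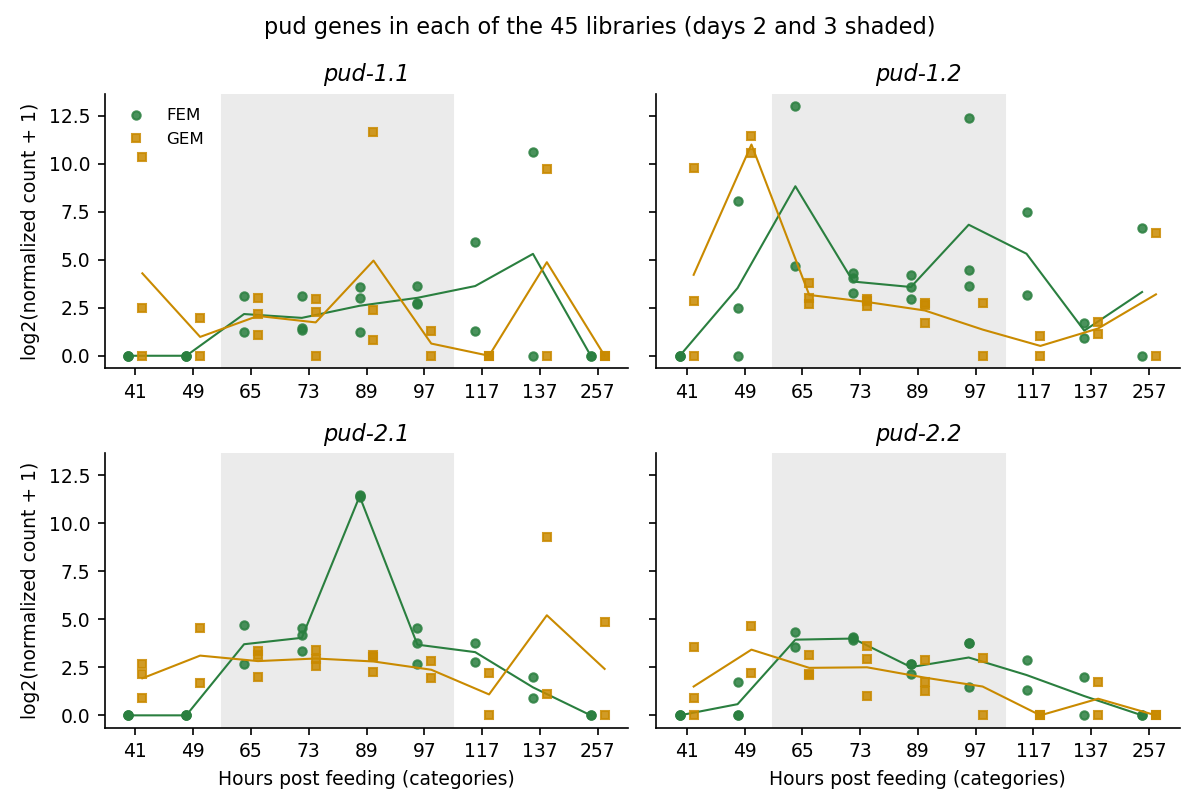
Levels of pud-1.1, pud-1.2, pud-2.1 and pud-2.2 in each of the 45 libraries, log2(normalized count + 1), by hours post feeding drawn as categories, with lines through the group means and days 2 and 3 shaded. The 3 FEM libraries at 89 h stand together at 11.34 to 11.47 in pud-2.1, while pud-1.1 and pud-1.2 show single high libraries within groups.

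In FEM alone, 1 of 16608 genes passed the test (0.00602%), pud-2.1, and 1038 had an unadjusted p under 0.05 (6.25%), 659 higher (3.97%) and 379 lower (2.28%). In GEM alone, none of 16360 genes passed it in limma (0 genes, 0%), and 539 had an unadjusted p under 0.05 (3.29%), 257 higher (1.57%) and 282 lower (1.72%), with a smallest adjusted p of 0.197. The confidence interval lay within ±1 for 81.9% of genes in FEM and for 69.7% in GEM. A test of the difference between the strains, FEM minus GEM, called 0 genes (0%) in limma, with 401 at an unadjusted p under 0.05 (2.41%), 189 higher in FEM (1.13%) and 212 lower (1.27%). Replicates varied more in GEM at all ages but 97 h, where the strains were close. The median over genes of the SD within a group was 0.29, 0.29, 0.46 and 0.16 in GEM at 65, 73, 89 and 97 h, and 0.10, 0.17, 0.20 and 0.15 in FEM.

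Taken apart by day, the change over 8 h was broader on day 2. Of the 16668 genes, 1 passed the test on day 2 (0.006%), cyp-29A4, but 2370 had an unadjusted p under 0.05 (14.2%), 1827 higher (11%) and 543 lower (3.26%). On day 3, 444 had (2.66%), 241 higher (1.45%) and 203 lower (1.22%). The median of all genes was 0.10 on day 2 as deposited and -0.03 after centering, a shift above 0.1, and the split of the genes on day 2 then became 1204 higher and 1268 lower, or 1737 and 1140 after quantile normalization. Changes of lists on day 2 are to be read relative to this shift. A test of day 3 minus day 2 called 1 gene, pud-2.1, with 1010 at an unadjusted p under 0.05 (6.06%), 348 higher (2.09%) and 662 lower (3.97%). The change in excess of a steady drift called pud-2.1 alone (-1.86, SE 0.22, limma adjusted p = 0.00122), with 848 genes at an unadjusted p under 0.05 (5.09%), 461 higher (2.77%) and 387 lower (2.32%).

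Separation by strain, made after the values were seen, gave more genes at a small p in GEM than in FEM on day 2. These counts come from a fit of both strains together, in which the strains share a spread per gene. For genes whose replicates varied more in GEM, p can come out too small in GEM and too large in FEM. In GEM on day 2, 8 genes passed the test (0.048%), 6 higher and 2 lower, and 4281 had an unadjusted p under 0.05 (25.7%), 3676 higher (22.1%) and 605 lower (3.63%). After centering each library on its median, 2177 were higher and 2009 lower at that p, and 71 and 58 passed the adjusted test. As deposited, many lay just beyond the threshold, with 624 genes under an adjusted p of 0.06 and 2190 under 0.1. In FEM on day 2, 0 genes passed in limma (0%), and 460 had an unadjusted p under 0.05 (2.76%), 241 higher (1.45%) and 219 lower (1.31%). In FEM on day 3, pud-2.1 passed, and 449 had an unadjusted p under 0.05 (2.69%), 248 higher (1.49%) and 201 lower (1.21%). In GEM on day 3, 2 genes passed (0.012%), and 409 had an unadjusted p under 0.05 (2.45%), 179 higher (1.07%) and 230 lower (1.38%). Pairs of a later and an earlier GEM library of day 2 had a median distance of 0.0226, beside 0.0152 for replicates of those groups. The corresponding pairs had 0.0126 in FEM on day 2, 0.0128 in FEM on day 3 and 0.0142 in GEM on day 3. The difference between GEM and FEM on day 2 was not tested.

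The number of genes called in GEM on day 2 turned on single libraries and on the scaling. Without GEM 89 h replicate 3, which does not enter the contrast but does enter the estimate of the spread, 3451 genes passed (20.7%), 3229 higher (19.4%) and 222 lower (1.33%). Without GEM 65 h replicate 1, GEM 73 h replicate 3 or GEM 89 h replicate 2 there were 2497, 2375 and 1756, and without GEM 73 h replicate 2 there were 4. Without GEM 65 h replicate 2 or 3, or without GEM 73 h replicate 1, 0 passed. Quantile normalization gave 1523 (9.14%), 1131 higher (6.79%) and 392 lower (2.35%), and a fit to all 45 libraries gave 1945 (11.5%), 1792 higher (10.6%) and 153 lower (0.904%). The 8 genes were among the 1125 called in all 3 of the fit without GEM 89 h replicate 3, the quantile normalized fit and the fit to all 45 libraries. All 3 take the contrast from the same GEM libraries of day 2, so the overlap is no independent support.

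The 8 genes called in GEM on day 2 are named here after their values were seen. Those that rose were cyp-29A4 by 1.82, Y38F2AR.10 by 1.45, Y45F3A.1 by 0.97, D1081.3 by 2.08, Y54F10BM.3 by 0.86 and T23B7.3 by 0.91, with limma adjusted p of 0.00894 to 0.0224. Those that fell were C15H11.10 and gyg-1. The gyg-1 transcript, which encodes the glycogenin that primes glycogen synthesis, fell by 0.64 (SE 0.11, adjusted p = 0.0224). It had 10.78, 10.89 and 11.04 in GEM at 73 h, against 11.40, 11.53 and 11.70 at 65 h, without overlap. In FEM it had 11.15, 11.14 and 11.09 at 73 h, against 11.21 and 11.18 at 65 h.

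Several of these genes were near the limit of detection in GEM and abundant in FEM. D1081.3 had 3.65, 2.77 and 3.59 in GEM at 73 h, against 1.57, 1.11 and 1.08 at 65 h, and 7.82 to 8.51 in the FEM libraries. C15H11.10 was listed at 0 in all GEM libraries at 73 h, against 1.99, 2.15 and 2.11 at 65 h, so no fold is given. It was also at 0 in all GEM libraries at 89 and 97 h. Its mean over the GEM libraries lay under the filter, so it was tested through its level in FEM alone, with group means of 5.92 to 6.05. The 2 genes called in GEM on day 3, C07A9.13 and fis-1, were also low in GEM and abundant in FEM. C07A9.13 had 3.09 and 3.00 in GEM at 97 h, against 0.82, 1.2 and 0 at 89 h, and fis-1 was listed at 0 in both libraries at 97 h, against 2.02, 3.13 and 1.93 at 89 h. In GEM on day 3, 0 genes passed in each fit that left out a FEM library, GEM 65 h replicate 2, GEM 73 h replicate 1 or GEM 89 h replicate 3. There were 5 without GEM 89 h replicate 1, 5 without GEM 97 h replicate 1 and 8 without GEM 97 h replicate 2.

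Germline lists had the highest medians of all lists in GEM on day 2. In the list of 16 oocyte and maternal genes, which encode eggshell proteins, the yolk receptor and regulators of maternal mRNA, the median change in GEM on day 2 was 1.45, beside 0.16 over all genes, and all 16 were above 0 with an unadjusted p under 0.05. None passed the adjusted test in the 22 libraries, and 16 of 16 passed without GEM 89 h replicate 3, 7 after quantile normalization and 14 in the fit to all 45 libraries. GEM 89 h replicate 3 was singled out by the mean of these same 16 genes. Leaving it out changes the estimated spread and not the change itself, so the 16 of 16 is no independent support. Without the 3 libraries that stood apart, among them GEM 65 h replicate 2, the median in GEM on day 2 was 0.92 and 3 of 16 passed. The mean level of the list was 11.17, 12.08 and 10.97 in GEM at 73 h, against 10.53, 9.17 and 10.46 at 65 h, without overlap. It was 13.01 and 12.96 at 97 h, against 12.93, 12.72 and 14.28 at 89 h, so day 3 held no such step, and the median change there was -0.32. In FEM the list had a median change of 0.20 on day 2 and 0.44 on day 3, with mean levels of 9.89 to 10.20 at 73 h, against 9.68 and 9.95 at 65 h. In whole worms, fewer cells of a type and less RNA per cell cannot be told apart, and the share of GEM animals with a gonad is not given with the libraries. By the study's methods, GEM animals seen to be fertile were removed before harvest, and plates holding many of them were thrown away. The part of this selection in the levels was not tested.

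The 14 genes of germ cell proliferation and meiosis had values of the same kind. Their median change was 1.11 in GEM on day 2, with 14 above 0 and at an unadjusted p under 0.05, and 0.04 in FEM on day 2. None passed the adjusted test in the 22 libraries, and 14 of 14 passed without GEM 89 h replicate 3, and 1 of 14 without the 3 libraries that stood apart, with a median of 0.77. The 14 of 14 is no independent support either, since that library enters the estimated spread alone. The synaptonemal complex gene syp-1, which holds paired chromosomes together in meiosis, had 9.35, 9.78 and 8.89 in GEM at 73 h, against 8.51, 7.60 and 8.48 at 65 h. It had 10.92, 10.94 and 10.95 in FEM at 73 h, against 10.81 and 10.82 at 65 h. Its change over both strains was 0.28 (SE 0.14, limma adjusted p = 0.762), and over 24 h it rose by 1.28 (adjusted p = 2.96e-06). The 8 somatic gonad genes had a median of 0.37 in GEM on day 2, and inx-8, a gap junction gene of the gonadal sheath, had a difference over both strains of 0.28 (SE 0.19, adjusted p = 0.762).

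Over both strains and days, the oocyte list had a median of 0.44, beside 0.05 over all genes, with 16 of 16 above 0, 5 at an unadjusted p under 0.05 higher and 0 past the adjusted test. Over 24 h all 16 rose, with a median of 1.55. The eggshell gene perm-4, an abundant vitelline layer component, had 15.45, 15.60 and 15.35 in GEM at 73 h, against 15.03, 14.51 and 14.51 at 65 h, without overlap. It had 17.57, 17.62 and 17.33 in FEM at 73 h, against 17.27 and 17.04 at 65 h. Its level was thus higher in FEM, which makes no oocytes, than in GEM, and it is no measure of oocyte content here. Its change over both strains was 0.28 (SE 0.09, limma adjusted p = 0.586), and 0.78 in GEM on day 2 (SE 0.17, adjusted p = 0.059). Without the 3 libraries that stood apart the median of the list over both strains was 0.38. In that fit 15 of the genes were higher at an unadjusted p under 0.05, beside 2095 of all 16626 genes. GEM 65 h replicate 2 and GEM 89 h replicate 3, left out there, were singled out by the mean of these same 16 genes. The 15 is thus no independent support.

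**Figure D4:**
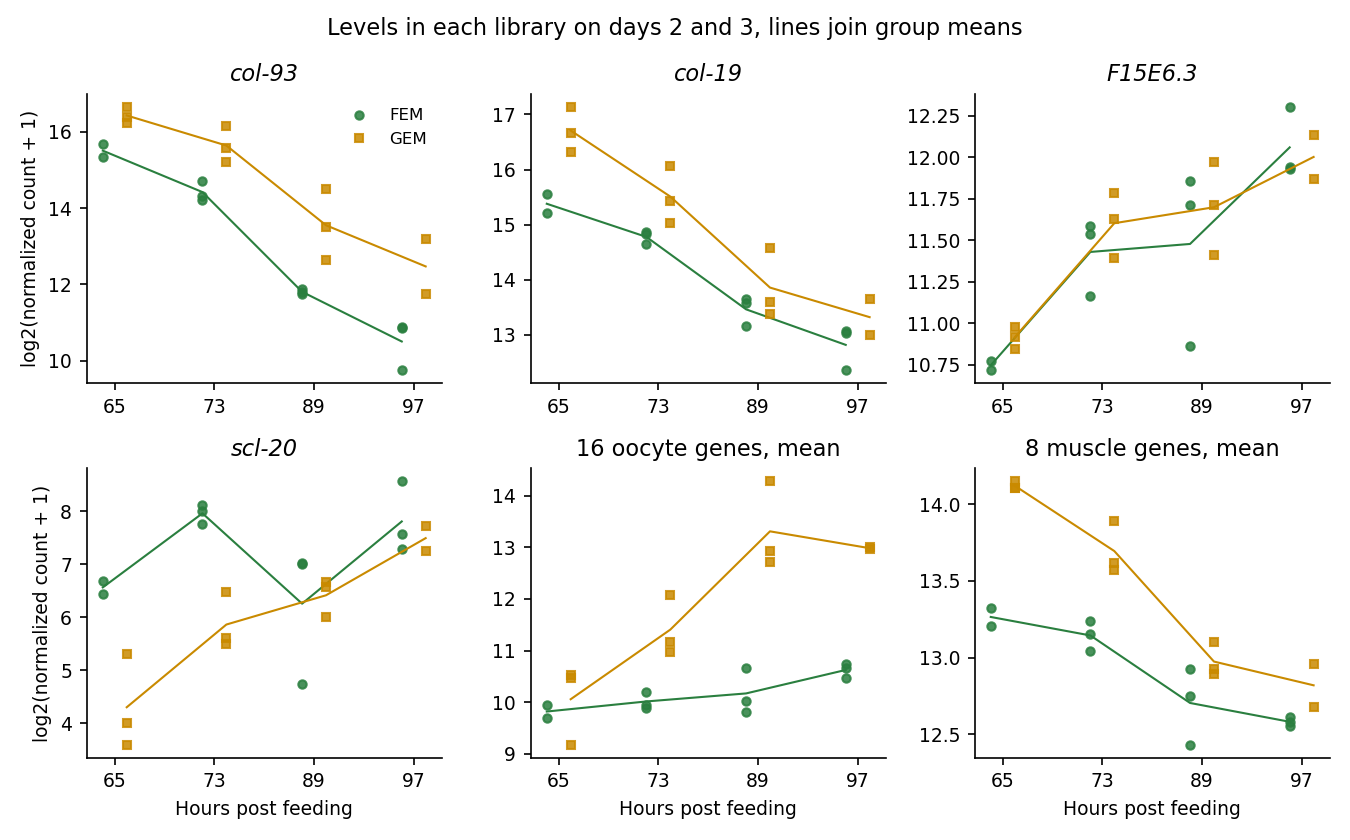
Levels in each library on days 2 and 3, log2(normalized count + 1), for the genes col-93, col-19, F15E6.3 and scl-20 and for the mean of 16 oocyte and of 8 muscle genes, with lines through the group means of FEM and GEM. The oocyte mean climbs in GEM within day 2 (10.97 to 12.08 at 73 h, against 9.17 to 10.53 at 65 h), and both collagens and the muscle mean decline over the 4 ages.

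Sperm transcripts, which are abundant in FEM and low in GEM, had higher values at the later hours when averaged over strains and days. The 31 genes of the major sperm protein, the cytoskeletal protein that drives sperm crawling, averaged 11.40 to 12.61 in FEM libraries and 4.84 to 6.27 in GEM libraries. Their median change over 8 h was 0.30, with 30 of 31 above 0, 9 at an unadjusted p under 0.05 and 0 past the adjusted test. Without the 3 libraries that stood apart the median was 0.18. In that fit 2 of the 31 were higher at that p, beside 2095 of all 16626 genes. Over 24 h the median was -0.60 and 24 fell. The member msp-3 had 13.33, 13.39 and 12.72 in FEM at 73 h, against 13.07 and 12.94 at 65 h, and 12.80, 12.59 and 12.61 at 97 h, against 12.48, 12.34 and 12.54 at 89 h. Of these FEM groups, those of day 2 overlapped and those of day 3 did not. Its change was 0.38 (SE 0.12, limma adjusted p = 0.547). The copies of this family are near identical and can share reads, so single members are uncertain. Of 15 other sperm genes, 14 were above 0 with a median of 0.15, and ssp-19, a sperm-specific family member, had a difference of 0.68 (SE 0.22, adjusted p = 0.592). In FEM on day 2 the median was 0.07 for the major sperm protein genes and -0.13 for the 15 others. In GEM on day 2, where levels were low, these medians were 0.55 and 0.61.

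Cuticle collagens had lower values at the later hours of day 2, with a larger median change in GEM than in FEM. Of 154 collagens tested (178 listed), 117 were below 0 and the median change over both strains was -0.27. At an unadjusted p under 0.05, 26 were lower and 1 higher, and 0 passed the adjusted test. The median was -0.47 among the 28 with a mean level of at least 10, 17 of them lower at an unadjusted p under 0.05, and -0.25 among those with a lower mean level, 9 of them lower at that p. Of the 20 genes with the smallest p over both strains, 4 were collagens, col-93, col-20, col-19 and col-124, the last 3 named after their values were seen. Over 24 h, 43 collagens fell and 14 rose. On day 2 the median over 8 h was -0.82 and on day 3 it was 0.04, or -0.95 and 0.14 without the 3 libraries that stood apart. Taken by strain, the median on day 2 was -1.34 in GEM and -0.22 in FEM. The mean of the list was 6.36, 7.67 and 7.31 in GEM at 73 h, against 7.75, 8.04 and 9.35 at 65 h. In FEM it was 6.43, 6.05 and 6.99 at 73 h, against 6.63 and 7.12 at 65 h, with overlap. The mean of the list was 7.30 ± 1.51 in GEM at 97 h (SD, n = 2), against 6.78 ± 0.75 at 89 h (n = 3), and 6.24 ± 1.06 in FEM at 97 h, against 6.24 ± 0.93 at 89 h (n = 3 each).

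The adult collagen col-93 (chromosome III from 10984552 to 10985609) was lower at the later hours in both strains. It had 14.33, 14.22 and 14.72 in FEM at 73 h, against 15.34 and 15.68 at 65 h, and 9.75, 10.89 and 10.86 at 97 h, against 11.80, 11.87 and 11.74 at 89 h. In GEM it had 15.21, 15.57 and 16.16 at 73 h, against 16.23, 16.40 and 16.66 at 65 h, and 11.74 and 13.20 at 97 h, against 12.64, 14.51 and 13.50 at 89 h. All groups but those of GEM on day 3 were free of overlap. Its change over both strains was -1.06 (SE 0.21, limma adjusted p = 0.224), and over 24 h it fell by 3.42 (SE 0.21, adjusted p = 2.03e-08). For col-19, a marker of the adult cuticle, the change was -0.74 (SE 0.16, adjusted p = 0.261) and the change over 24 h was -2.23 (adjusted p = 5.24e-08). In day 1, between 49 and 41 h, col-19 rose by 4.23 (SE 0.34, adjusted p = 2.73e-11), and col-93 by 1.86 (SE 0.69, adjusted p = 0.034).

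Muscle transcripts had lower values as well. All 8 body wall muscle genes, which encode myosin, troponin and other sarcomere proteins, were below 0 over both strains, with a median of -0.21, 6 at an unadjusted p under 0.05 and 0 past the adjusted test. Over 24 h all 8 fell, with a median of -0.81. The mean of the 8 genes was 13.62, 13.57 and 13.89 in GEM at 73 h, against 14.11, 14.11 and 14.15 at 65 h, and 13.04, 13.24 and 13.15 in FEM at 73 h, against 13.20 and 13.33 at 65 h. The troponin T gene mup-2 had 13.22, 13.24 and 13.24 in FEM at 73 h, against 13.34 and 13.43 at 65 h, and 12.64, 12.71 and 12.67 at 97 h, against 12.88, 12.77 and 12.85 at 89 h. In GEM it had 14.47, 14.48 and 14.70 at 73 h, against 14.90, 14.93 and 14.96 at 65 h. None of these pairs of groups overlapped. In GEM on day 3 it had 13.42 and 13.68 at 97 h, against 13.78, 13.97 and 13.65 at 89 h, with overlap. The change of mup-2 was -0.24 (SE 0.05, limma adjusted p = 0.261), and it fell by 0.81 over 24 h (adjusted p = 2.03e-08).

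Other tissue markers moved less. Of 9 intestine genes, 3 were lower at an unadjusted p under 0.05 and the median was -0.02. The intestinal intermediate filament gene ifb-2 had a difference over both strains of -0.38 (SE 0.10, limma adjusted p = 0.475) and of -0.89 in GEM on day 2 (adjusted p = 0.059). It had 11.01, 11.17 and 11.44 in GEM at 73 h, against 11.69, 12.09 and 12.52 at 65 h. The 9 neuron genes had a median of 0.00 and none at an unadjusted p under 0.05, and the synaptic vesicle gene rab-3 had a difference of -0.10 (SE 0.07, adjusted p = 0.764). For 118 neuropeptide genes the median was 0.06, with 8 higher and 3 lower at an unadjusted p under 0.05, and nlp-20 had a difference of 0.20 (SE 0.06, adjusted p = 0.518).

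**Figure D5:**
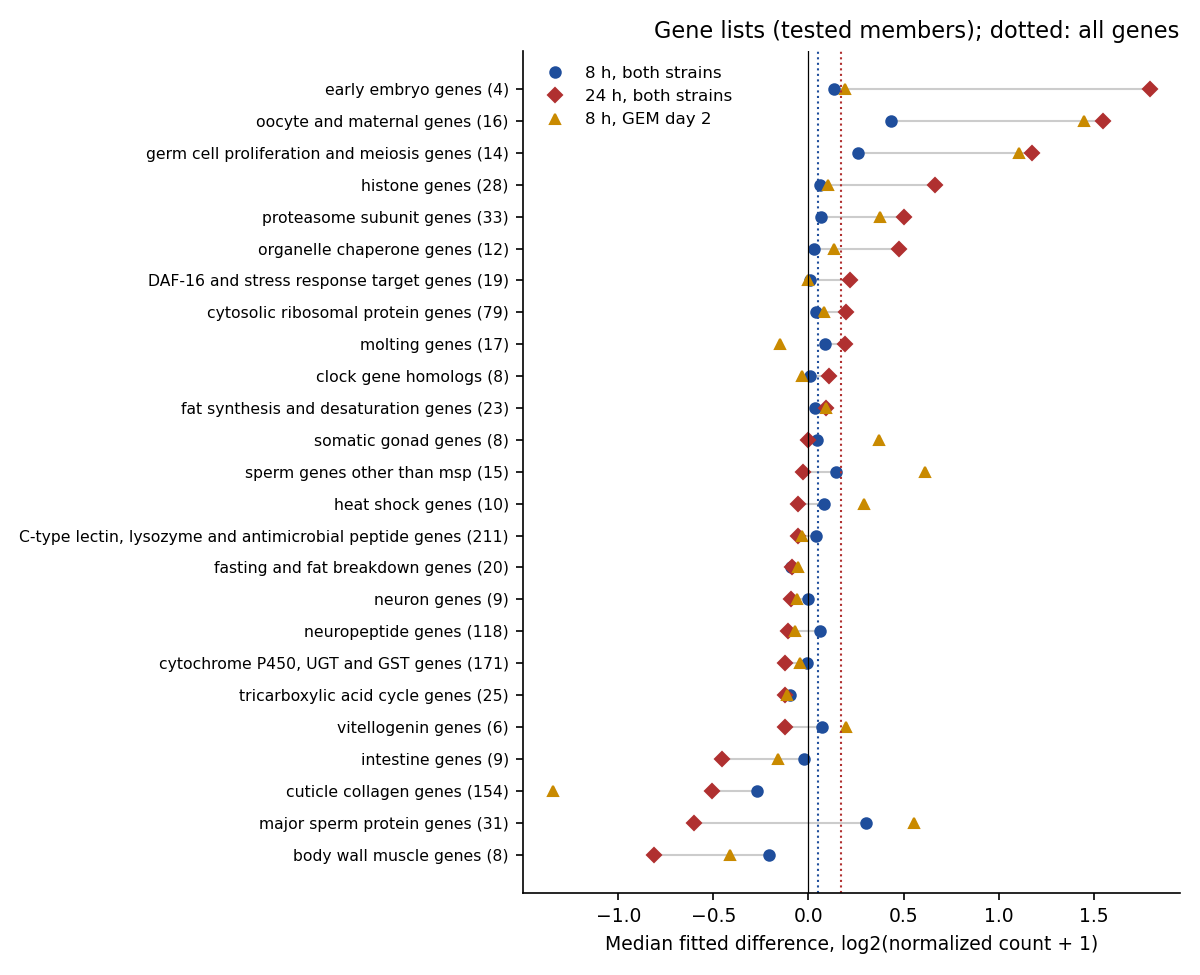
Median fitted difference of each gene list (number of tested members in brackets), log2(normalized count + 1), for the change over 8 h in both strains, over 24 h in both strains, and over 8 h in GEM on day 2, with dotted lines at the medians of all genes for the first 2. The medians over 8 h in both strains lie between -0.27 and 0.44, and those of the germline lists in GEM on day 2 are 1.45 and 1.11, beside 1.55 and 1.18 over 24 h.

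Programs that run in larvae or at the last molt had no member past the test within days 2 and 3. Over both strains, just 2 of all 16668 genes passed it. Over both strains and days, the 17 molting genes had a median of 0.08 and 0 members at an unadjusted p under 0.05. Without the 3 libraries that stood apart, their median was -0.25 on day 2, with 2 higher at that p, and 0.43 on day 3. On day 3, 6 of the 17 were then higher at that p and 0 lower, beside 266 higher of all 16626 genes. Within day 1, where 2134 of all 16925 genes tested fell and 3736 (22.1%) rose, 14 of the molting genes fell with a median of -2.68. The kinase gene nekl-2, which acts in molting, had a difference of 0.09 (SE 0.07, limma adjusted p = 0.77). Among 8 homologs of clock genes of other animals, the median was 0.01, with 1 lower at an unadjusted p under 0.05, and within day 1, 5 fell. The gene aha-1, a homolog of the mammalian ARNT proteins, had a difference of -0.19 (SE 0.09, adjusted p = 0.762). The 6 vitellogenin genes, which encode yolk proteins made in the intestine, all rose within day 1 with a median of 5.35, and had a median of 0.07 over 8 h on days 2 and 3. The yolk gene vit-5 had a difference of 0.19 (SE 0.11, adjusted p = 0.762), and it has close copies that can share its reads.

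Heat shock genes differed in sign between the days without passing a test. Of 15 listed, 10 were tested, and the median was 0.31 on day 2, with 4 higher at an unadjusted p under 0.05, and -0.39 on day 3, with 10 of 10 below 0 and 0 at an unadjusted p under 0.05. On day 3 the mean of the list was 7.47, 8.29 and 7.74 in FEM at 97 h, against 8.24, 9.56 and 7.70 at 89 h, the 9.56 being FEM 89 h replicate 2. Without the 3 libraries that stood apart, that one among them, the median of the list was -0.13 on day 3 and 0.36 on day 2. The chaperone gene F44E5.5, an Hsp70 with a near-identical neighbor, had a difference over both strains of 0.64 (SE 0.39, limma adjusted p = 0.762). The median of 12 organelle chaperones was 0.03, and atfs-1, the regulator of the mitochondrial unfolded protein response, had a difference of 0.16 (SE 0.11, adjusted p = 0.762). Among 19 targets of the FOXO factor DAF-16 the median was 0.01, and the superoxide dismutase gene sod-3 had a difference of -0.35 (SE 0.13, adjusted p = 0.67), beside a fall of 1.05 over 24 h (adjusted p = 5.56e-06).

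Metabolic and immune lists had smaller median changes than the oocyte, collagen and muscle lists. The 25 genes of the tricarboxylic acid cycle had a median of -0.10, with 21 below 0 and 4 lower at an unadjusted p under 0.05. The isocitrate dehydrogenase gene idh-2 had 9.65, 9.54 and 9.65 in FEM at 73 h, against 9.94 and 9.97 at 65 h, and had a difference over both strains of -0.22 (SE 0.07, limma adjusted p = 0.497). Of 171 genes for cytochromes P450, UDP-glucuronosyltransferases and glutathione S-transferases, cyp-29A4 rose, and 13 were higher and 6 lower at an unadjusted p under 0.05. The median of 23 genes of fat synthesis was 0.04 and that of 20 genes of fasting and fat breakdown -0.09. The desaturase gene fat-2 had a difference of 0.22 (SE 0.07, adjusted p = 0.579), and gpd-2, a glyceraldehyde-3-phosphate dehydrogenase with a close copy, of -0.19 (SE 0.08, adjusted p = 0.761).

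Of 211 genes for C-type lectins, lysozymes and antimicrobial peptides, 23 were higher and 7 lower at an unadjusted p under 0.05, with a median of 0.04. The lectin gene clec-190 had 9.94, 10.56 and 9.80 in FEM at 73 h, against 9.45 and 9.18 at 65 h, and 10.81, 10.39 and 10.65 at 97 h, against 10.04, 9.22 and 10.01 at 89 h. Neither pair of groups overlapped, and its change over both strains was 1.07 (SE 0.27, limma adjusted p = 0.372). The median was 0.04 for 79 cytosolic ribosomal protein genes, 0.06 for 33 proteasome genes and 0.06 for 28 histone genes, with 0 members of any of the 3 lists at an unadjusted p under 0.05. In GEM on day 2 the proteasome median was 0.38, beside 0.16 over all genes, and in FEM on day 2 it was 0.01. Of the 33, 0 passed the adjusted test in GEM on day 2 in the 22 libraries. Without GEM 89 h replicate 3, 19 passed, and 0 did after quantile normalization or with all 45 libraries. Over both strains and days, the ribosomal gene rpl-11.1 had a difference of 0.29 (SE 0.15, adjusted p = 0.762), the proteasome gene pbs-4 one of 0.12 (SE 0.10, adjusted p = 0.771), and the histone gene his-68, one of many near-identical copies, one of 0.34 (SE 0.20, adjusted p = 0.762). The 4 early embryo genes tested, of 10 listed, had a median of 0.13, and ceh-51, a homeobox gene of the embryonic mesoderm, had a difference of -0.54 (SE 0.45, adjusted p = 0.771). The sign of the list medians over both strains turned with the scaling for the lectin, DAF-16, clock, ribosomal, fat synthesis, histone, molting, neuropeptide, organelle chaperone, proteasome, somatic gonad and vitellogenin lists. It did not turn for the oocyte, germ cell, muscle, collagen and sperm lists.

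The remaining genes with small p over both strains did not pass the test and were named after their values were seen. The secreted protein gene scl-20, of a family related to plant pathogenesis proteins, had 8.01, 8.12 and 7.76 in FEM at 73 h, against 6.69 and 6.43 at 65 h, without overlap. It had 5.61, 6.48 and 5.5 in GEM at 73 h, against 5.31, 4.00 and 3.59 at 65 h, and 7.73 and 7.26 at 97 h, against 6.0, 6.67 and 6.58 at 89 h. Its change was 1.40 (SE 0.28, limma adjusted p = 0.224). The gene F15E6.3 had a difference of 0.56 (SE 0.11) and F15E6.4, which lies on the same chromosome, one of 0.67 (SE 0.13), both at an adjusted p of 0.224. Of the 20 genes with the smallest p, 19 moved in the same direction in all 4 comparisons of a strain and day, beside 11.9% of all genes tested, and the choice of the 20 by p favors this.

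The genes mutated in the strains did not pass the test. The change over both strains was 0.42 for fem-3 (SE 0.19, limma adjusted p = 0.762), a regulator of germline sex, -0.06 for the cation channel gene gon-2 (SE 0.06, adjusted p = 0.807) and 0.04 for the transporter gene gem-1 (SE 0.11, adjusted p = 0.916). Levels of fem-3 in GEM were 7.36, 8.37 and 7.21 at 73 h, against 6.72, 5.48 and 6.59 at 65 h, without overlap, and its change in GEM on day 2 was 1.38 (SE 0.36, adjusted p = 0.059). The sign of the change in gem-1 turned with the scaling.

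The same interval in day 1, 49 against 41 h, was compared in the 11 libraries of that day with a fit to all 45 libraries. It called 5870 of 16925 genes (34.7%), 3736 higher and 2134 lower. Of the 600 genes tested in both fits that were higher at the later hours of days 2 and 3 at an unadjusted p under 0.05, 452 (75.3%) were higher at 49 h, and of the 448 lower, 240 (53.6%) were higher at 49 h. Of all 16590 genes, 9002 (54.3%) were higher at 49 h. These are descriptions of direction, and 41 h falls at the end of the last molt.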

How the data were processed

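The authors trimmed the reads with Trim Galore 0.4.4, mapped them to WBCel235 with HISAT2 2.1.0 as single-end, non-directional libraries, with counting per gene in SeqMonk with isoforms merged and without strand, so overlapping genes and close copies can share reads. The authors deposited the natural log of the DESeq2-normalized count plus 1 for 25985 genes in 45 libraries, to 2 decimals. The base was read from the values, and 0 columns were left unmapped. The planned tests assumed log2, and each value was therefore rescaled by dividing it by the natural log of 2.

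Genes whose deposited values averaged 1 or more over the fitted libraries were tested with limma 3.58.1 in R 4.3.3. The model had a mean for each group of strain and age, contrasts between groups, empirical Bayes moderation with a trend, and Benjamini-Hochberg adjustment over all genes at 0.05. The 8 groups of 65, 73, 89 and 97 h were fitted together, or 4 for 1 strain, and all 18 groups for day 1. Depth was estimated from the step that 1 read adds to low values, a normalized count of 0.766 to 1.91, and was tested by exact permutation within strain and day. The contrast over both strains was tried on simulated data with independent noise and a spread per gene common to both strains. That setting covers neither the contrasts within a strain and day nor the larger spread in GEM. Gene lists are described by counts and medians without a set test.

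Named genes are those called with the same direction throughout, the member with the smallest p of each list, the genes mutated in the strains and the calls of the difference contrasts. Other named genes were chosen after their values were seen. Members, lists and rule were chosen with earlier results of these data known. Alternatives were no filter and a filter at 3, quantile normalization, median centering, a pseudocount of 8, no trend, an additive model, all 45 libraries, and each library left out. Leaving out the 3 libraries that stood apart and separating the days by strain were added after the data were seen. Positions are from Ensembl release 115, to which 23897 names matched. Analysis used Python 3.11.15 with numpy 2.4.6, pandas 2.3.3, scipy 1.17.1 and matplotlib 3.10.9.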

Additional observations from a re-analysis of the deposited data

Results flagged for a closer look

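The change of pud-2.1 over 8 h differed between the days, with day 3 minus day 2 at -4.31 (SE 0.57, limma adjusted p = 0.00739). The call was lost without GEM 97 h replicate 2 (-4.09, adjusted p = 0.0564), without the 3 libraries that stood apart (-4.39, adjusted p = 0.114) and in a fit to all 45 libraries (adjusted p = 0.56). The change was -4.08 on day 3 and 0.23 on day 2 over both strains. Its close copies can share reads, and the part of this in the result was not tested.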

How the results depend on the processing

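Counts of genes past the threshold depended on the settings. Over both strains 2 genes were called, against 0 after quantile normalization, in a fit to all 45 libraries and in the additive model, and 1 after median centering and without the 3 libraries apart. In FEM alone the count of 1 became 0 without a trend, with all 45 libraries and in the additive model. In GEM alone 0 became 3 with all 45 libraries, and for FEM minus GEM 0 became 1 with a pseudocount of 8. On day 2, 1 became 2 without a filter or a trend, 0 with quantile normalization, centering, a pseudocount of 8 or all 45 libraries, and 11 without the 3 libraries apart. On day 3, 1 became 3 without a filter and 0 with all 45 libraries. For the difference between days and for the excess over drift, 1 became 0 with all 45 libraries and without the 3 libraries apart. Without a filter there were 6 in FEM on day 2, 8 in FEM on day 3, 13 in GEM on day 2 and 9 in GEM on day 3. GEM on day 2 gave 1523 after quantile normalization, 129 after centering, 1945 with all 45 libraries and 360 without the 3 libraries apart. GEM on day 3 gave 0 under quantile normalization, centering, a pseudocount of 8, no trend, all 45 libraries and without the 3 libraries apart. The causes were not tested.

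Leaving out 1 library at a time gave 0 to 3 genes over both strains, 0 to 4 in FEM alone (4 without FEM 97 h replicate 1), 0 to 0 in GEM alone, 0 to 1 for FEM minus GEM, 0 to 49 on day 2 (49 without GEM 65 h replicate 1), 1 to 2 on day 3, 0 to 1 for the difference between days and 1 to 3 over drift. It gave 0 to 1 in FEM on day 2, 1 to 2 in FEM on day 3, 0 to 3451 in GEM on day 2 and 0 to 8 in GEM on day 3. It gave 7629 to 8596 over 24 h and 4184 to 6424 in day 1, and differences of -4389225 to -2733232 in estimated reads and -445 to -125 in detected genes.

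The change of gem-1 over both strains turned to -0.046 after quantile normalization, -0.028 after centering and -0.044 without the 3 libraries apart, and lay between -0.034 (without GEM 97 h replicate 1) and 0.118 when 1 library was left out. The change of pud-2.1 in GEM alone was 0.036 without the 3 libraries apart and -0.37 to 0.072 (without GEM 97 h replicate 2) when 1 was left out, and that on day 2 over both strains was -0.27 to 0.74 when 1 was left out. No paired analysis was possible because the labels give no replicate number shared between groups. The titles carry a running library number, but no source divides it into series, so it was not used as a block. Without counts of reads for abundant genes no count test was run, and the replication limits what could be seen.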
